A study of Mus musculus with 8 samples.

Results

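Transcripts of 10 neuropeptide genes of the cerebral cortex (Npy, Sst, Cck, Vip, Crh, Cort, Pnoc, Adcyap1, Cartpt and Tac2) were examined in mouse brain cortexes after a normal or a high fat diet. The genes were chosen by name with earlier results of these data known, as were the gene lists used below. All 10 were found among the 13996 genes of the expression values. Male C57BL/6 mice entered the study at 8 weeks of age and were fed for 8 weeks with a conventional diet or with a diet of 60% fat by weight. Cortexes were taken at 16 weeks of age under ether anesthesia from 4 mice of each diet, with 1 RNA sequencing library per mouse. The high fat diet fed mice had gained more weight and tolerated glucose less well than the mice on the normal diet, and no other treatment or genetic change was given for either group. The values are FPKM, fragment counts scaled by transcript length and by the mapped fragments of the library, which corrects for transcript length and depth and therefore allows the levels of different genes to be set side by side.

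Neuropeptides are made as longer precursors, cut by proteases inside the secretory pathway, stored in dense core granules and released during strong activity, after which they act mostly on G protein-coupled receptors. In the cortex many of them mark classes of inhibitory interneurons. Sst, often with Npy and Cort, is made by interneurons that contact the dendrites of pyramidal neurons. Vip, in part together with Crh or Tac2, is made by interneurons that mainly inhibit other interneurons. Cck and Adcyap1 are also made by excitatory neurons. Npy and Cartpt are best known from the hypothalamus, where they act in opposite directions on feeding, and both are made in the cortex as well.

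Short sequences before the transcription start of the genes are shown because several of these genes are classical targets of the cAMP pathway, whose transcription factor CREB binds the palindrome TGACGTCA or the shorter TGACG. The sequences come from RefSeq on GRCm38.p6, which gave windows for 8 of the 10 genes (Npy, Sst, Cck, Vip, Cort, Adcyap1, Cartpt and Tac2), with 2 start sites for Adcyap1. The 250 bases before each start were searched on both strands. TGACGTCA was found in 2 of 8 genes, Sst and Cartpt, and in 1.55% of all 32851 windows. TGACG, which every TGACGTCA also contains, was found in 6 of 8 genes and in 17.8% of all windows. TATAAA was found in 2 of 8 genes, Vip and Adcyap1, and in 12.4% of all windows. Npy and Tac2 held none of the 3 motifs in this window. The motif is in capitals in each line, read 5′ to 3′ on the strand of the gene, and CGTCA is TGACG on the opposite strand.
Sst: tccttggcTGACGTCAgagagaga
Cartpt: gcgggcatTGACGTCAaacggcag
Vip: cactactgTGACGtctttcgg
Adcyap1: taggatgcTGACGtcttttac
Cck: ctggactgCGTCAgcactggg
Cort: ggcttgtgCGTCAccgcgtga
These stretches lie at chr16:23890877-23890900 (minus strand) for Sst, chr13:99900780-99900803 (minus) for Cartpt, chr10:5639131-5639151 (plus) for Vip, chr17:93198918-93198938 (plus) for Adcyap1, chr9:121495729-121495749 (minus) for Cck and chr4:149126769-149126789 (minus) for Cort. The motif began 48 bases before the RefSeq start in Sst, 112 in Cartpt, 79 in Vip, 47 in Cck and 18 in Cort. The GENCODE genes whose coordinates are given below begin farther upstream for Sst (23890958) and Cartpt (99901091). By those coordinates both palindromes lie within the gene, after its start. A match describes the letters only, and binding was not measured. Of the 2 genes with the palindrome, Cartpt fell on the high fat diet and Sst did not pass the test, as given below.

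Before the comparison, the libraries were checked with marker genes of cortex and of neighbouring tissue. The projection neuron gene Slc17a7, which encodes the vesicular glutamate transporter of cortical excitatory neurons, was at 209.5 to 403.9 FPKM in all 8 mice. The summed FPKM of 10 measured cerebellum genes was 24.8, 272.4, 369.3 and 83.9 in normal mice 1 to 4 and 17.9 to 20.8 in high fat diet fed mice. That of 8 thalamus genes was 47.5, 154.8, 152.1 and 62.0 in the normal mice and 28.1 to 33.2 in the high fat diet fed mice. Calb2, also a listed interneuron gene, was the largest part of the thalamus sum in normal mice 2 to 4 (71.2, 83.1 and 36.6). It was at 11.0 in normal mouse 1 and at 7.1 to 10.9 on the high fat diet. The summed FPKM of 11 striatum genes was 219.4 to 401.6 in normal and 87.2 to 110.3 in high fat diet fed mice. The choroid plexus genes, almost wholly Ttr, lay at 344.8 to 730.0 in normal mice, at 22.8 to 79.0 in high fat diet fed mice 1 to 3 and at 948.0 in high fat diet fed mouse 4. Normal mice 2 and 3 therefore stand apart by their cerebellum and thalamus transcripts, and the diet comparison of each neuropeptide gene is given below with and without them. Leaving them out does not make the tissue alike between the diets. Normal mice 1 and 4 still lay above every high fat diet fed mouse in the sums of striatum (401.6 and 219.4), cerebellum and thalamus genes. For thalamus, the sum of normal mouse 4 rested largely on Calb2 (36.6 of 62.0 FPKM). Of the other thalamus genes in that mouse, Prkcd and Shox2 lay above every high fat diet fed mouse. Lef1 and Rgs16 lay below all of them, and Tcf7l2, Ramp3 and Plekhg1 lay within their range. In such bulk tissue, fewer cells of a type and less RNA per cell cannot be told apart.

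The order of the levels was led by the same 4 genes on both diets. Cck, the precursor of cholecystokinin, was the highest in every mouse and made up 43.1% to 51.1% of the summed FPKM of the 10 genes. Cck, Sst and Npy together made up 91.3% to 92.7% of that sum. The sum itself was 769.8, 573.7, 513.5 and 748.1 FPKM in normal mice 1 to 4 and 727.3, 692.3, 785.7 and 680.7 in high fat diet fed mice 1 to 4.

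On the normal diet the mean levels ran from Cck (304 FPKM) through Sst (193), Npy (101.4) and Vip (18.9) with no overlap between the ranges of neighbours. Cort (8.40), Adcyap1 (7.73), Tac2 (6.50) and Cartpt (5.70) followed with overlapping ranges of neighbours. Crh (2.90) and Pnoc (2.43) lay below all of these and overlapped each other. On the high fat diet Tac2 (8.40) was the fifth gene, apart from Vip (29.0) above it and from Adcyap1 (6.38) below it. Adcyap1 and Cort (5.80) overlapped, and Pnoc (3.05), Crh (2.45) and Cartpt (2.40) overlapped at the low end. Cartpt thus stood 8th of 10 on the normal diet and 10th of 10 on the high fat diet.

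**Figure D1:**
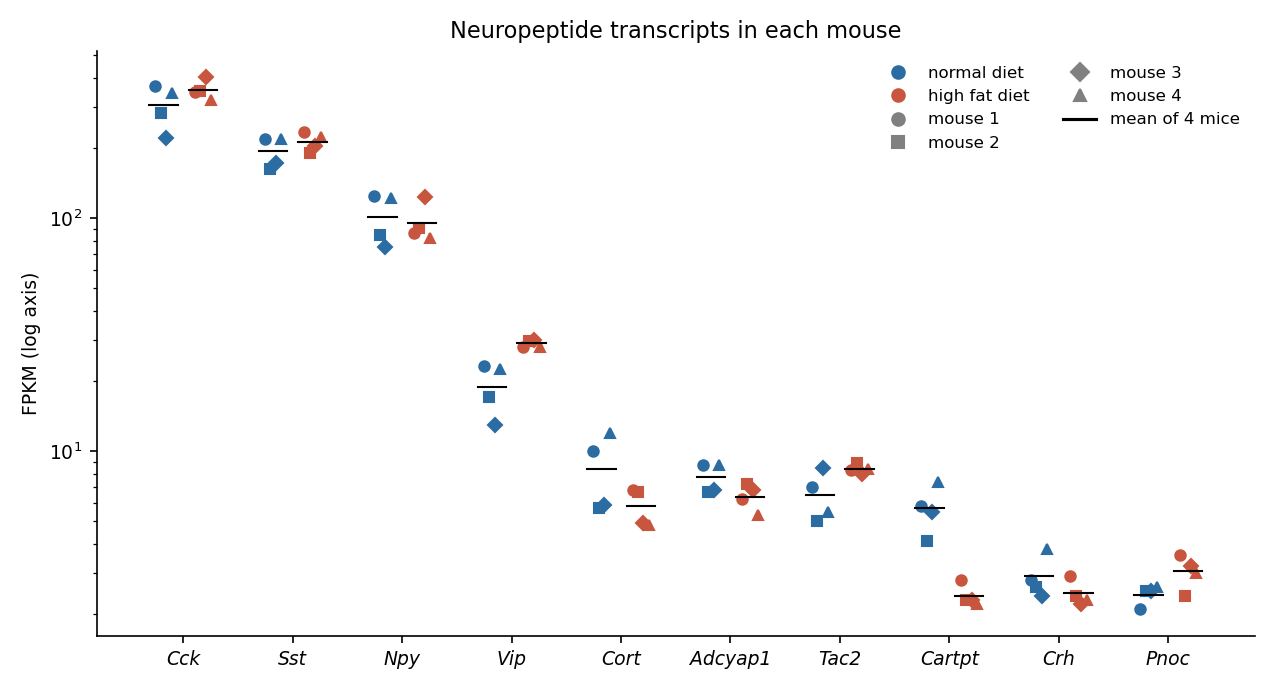
FPKM of the 10 neuropeptide genes in each mouse (log axis), in order of the mean on the normal diet, with blue symbols for the 4 normal and red symbols for the 4 high fat diet fed mice and a black line for each mean. The diets do not overlap in Vip (13 to 23.1 against 28.1 to 30.0) and in Cartpt (4.1 to 7.4 against 2.2 to 2.8).

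To compare the diets, log2(FPKM + 0.1) of the 13982 genes whose FPKM averaged at least 1 and was never 0 was tested with limma (two-sided, Benjamini-Hochberg adjusted), so fold changes are on that scale, which understates the change of low genes. All 10 neuropeptide genes passed this filter. Of all genes tested, 33.1% had an adjusted p below 0.05, 17.7% rising and 15.3% falling on the high fat diet, and 7.13% also changed by over 50%. Of the 10 neuropeptide genes, 2 had an adjusted p below 0.05, Vip higher and Cartpt lower, and both changed by over 50%. The values of the diets did not overlap in the same 2 genes, against 31.9% of all genes tested. By adjusted p alone, the share called among the 10 genes (20.0%) was therefore not above that of all genes. With a change over 50% as well, the same 2 of 10 genes stand beside 7.13% of all genes tested. The median log2 fold change was 0.04 over the 10 genes and 0.0031 over all genes tested.

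Vip, the precursor of vasoactive intestinal peptide (GRCm38 chromosome 10, 5639218 to 5647617, plus strand, 7 exons), was the gene that rose. Its FPKM was 23.1, 17, 13 and 22.4 in normal mice 1 to 4 and 28.1, 29.7, 30.0 and 28.1 in high fat diet fed mice 1 to 4. Every high fat diet fed mouse lay above every normal mouse, and the spread on the high fat diet was much narrower (18.9 ± 4.77 against 29.0 ± 1.02, mean ± SD, n = 4 each). The log2 fold change was 0.65 (SE 0.16, 95% interval 0.30 to 1.007, limma adjusted p = 0.0128). Leaving out each mouse in turn gave 0.49 to 0.76, with adjusted p between 0.00722 and 0.0369 by limma. The lowest values were those of normal mice 2 and 3, which had the most cerebellum and thalamus transcript. Without these mice the log2 fold change was 0.35 (SE 0.05, limma adjusted p = 0.00627), and the diets still did not overlap. With the level of the cerebellum genes as a covariate, which shares 67.8% of its variance with diet, it was 0.05 (95% interval -0.29 to 0.38, limma adjusted p = 0.885).

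Cartpt, the precursor of CART peptide (chromosome 13, 99898489 to 99901091, minus strand, 3 exons), was the gene that fell. Its FPKM was 5.8, 4.1, 5.5 and 7.4 in normal mice 1 to 4 and 2.8, 2.3, 2.3 and 2.2 in high fat diet fed mice 1 to 4. The lowest normal mouse lay above the highest high fat diet fed mouse. The mean was 5.70 ± 1.35 on the normal and 2.40 ± 0.271 on the high fat diet (SD, n = 4 each), and the log2 fold change was -1.19 (SE 0.16, 95% interval -1.55 to -0.83, limma adjusted p = 0.00121). It lay between -1.34 and -1.06 with each mouse left out, with adjusted p between 0.00123 and 0.0060 by limma. Without normal mice 2 and 3 it was -1.42 (limma adjusted p = 0.00245), and with the cerebellum genes as a covariate it was -1.497 (95% interval -2.10 to -0.90, limma adjusted p = 0.0256). The fall was thus at least as large without the mice that stand apart. The values are rounded to 0.1 FPKM, which is a coarse step for a gene near 2 FPKM. The striatum genes fell between the same diets. With their level as a covariate, which shares 95.7% of its variance with diet, the log2 fold change of Cartpt was -2.26 (SE 0.73, 95% interval -3.93 to -0.58, limma adjusted p = 0.999), and diet and striatum transcript can hardly be told apart in that fit.

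Tac2, the precursor of neurokinin B in the mouse (chromosome 10, 127724478 to 127731768, plus strand), did not pass the test. Its FPKM was 7.0, 5.0, 8.5 and 5.5 in normal mice 1 to 4 and 8.3, 8.9, 8.0 and 8.4 in high fat diet fed mice 1 to 4. Normal mouse 3 lay within the range of the high fat diet fed mice and the other normal mice lay below it. Tac2 gave a log2 fold change of 0.39 (95% interval 0.07 to 0.72, limma adjusted p = 0.0624), or of 0.43 with normal mice 2 and 3 left out (limma adjusted p = 0.0247). Without normal mouse 3 the adjusted p was 0.0103 (limma), the only mouse whose omission alone brought it below 0.05.

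Crh, the precursor of the stress peptide corticotropin-releasing hormone (chromosome 3, 19693401 to 19695396, minus strand), was low in the cortex. Its FPKM was 2.8, 2.6, 2.4 and 3.8 in normal mice 1 to 4 and 2.9, 2.4, 2.2 and 2.3 in high fat diet fed mice 1 to 4. The diets overlapped, with normal mouse 4 as the highest value, and the log2 fold change was -0.22 (95% interval -0.56 to 0.12, limma adjusted p = 0.283). With normal mice 2 and 3 left out it was -0.41 (95% interval -0.78 to -0.03, limma adjusted p = 0.117).

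Sst, the precursor of somatostatin (chromosome 16, 23889573 to 23890958, minus strand, 2 exons), was at 218.2, 162.9, 172.7 and 218.9 FPKM in normal mice 1 to 4 and at 233.6, 190.3, 203.6 and 223.6 in high fat diet fed mice 1 to 4. The ranges overlapped, and the log2 fold change was 0.15 (95% interval -0.10 to 0.39, limma adjusted p = 0.320). It was -0.04 without normal mice 2 and 3 (95% interval -0.24 to 0.15). A change of Sst by over 50% in either direction lay outside both intervals.

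Cort, the precursor of cortistatin, a relative of somatostatin that binds the same receptors (chromosome 4, 149125034 to 149126763, minus strand), was at 10, 5.7, 5.9 and 12 FPKM in normal mice 1 to 4 and at 6.8, 6.7, 4.9 and 4.8 in high fat diet fed mice 1 to 4. Normal mice 1 and 4 lay above all other mice, and normal mice 2 and 3 lay within the range of the high fat diet. For Cort the log2 fold change was -0.47 (95% interval -1.01 to 0.07, limma adjusted p = 0.160). It was -0.92 without normal mice 2 and 3 (SE 0.17, limma adjusted p = 0.0108). The longest run of bases shared by the annotated transcripts of any pair of the 10 genes was 21, between Sst and Cort, and reads had 100 cycles from each end. None of the 10 genes overlapped another annotated gene.

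Npy, the precursor of neuropeptide Y (chromosome 6, 49822710 to 49829507, plus strand, 4 exons), was at 124.8, 84.2, 75.1 and 121.4 FPKM in normal mice 1 to 4 and at 86.3, 90.4, 123.4 and 81.9 in high fat diet fed mice 1 to 4. High fat diet fed mouse 3 stood with normal mice 1 and 4, and the other 5 mice lay lower. Its log2 fold change was -0.07 (95% interval -0.48 to 0.34, limma adjusted p = 0.791), and its sign turned without normal mouse 1 (0.04) or normal mouse 4 (0.03). With normal mice 2 and 3 left out it was -0.39 (95% interval -0.72 to -0.05, limma adjusted p = 0.103), and with the cerebellum genes as a covariate -0.69 (95% interval -1.18 to -0.21, limma adjusted p = 0.101). Npy passed the adjusted test in none of these 3 fits, and its value depended on which normal mice were used.

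Pnoc, the precursor of nociceptin (chromosome 14, 65400673 to 65425472, minus strand), was at 2.1, 2.5, 2.5 and 2.6 FPKM in normal mice 1 to 4 and at 3.6, 2.4, 3.2 and 3.0 in high fat diet fed mice 1 to 4. High fat diet fed mouse 2 lay within the normal range and the others above it. The log2 fold change was 0.31 (95% interval 0.01 to 0.60, limma adjusted p = 0.0982), and without high fat diet fed mouse 2 the adjusted p was 0.0346 (limma). It was 0.36 with normal mice 2 and 3 left out (95% interval -0.04 to 0.75, limma adjusted p = 0.180).

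Cck (chromosome 9, 121489824 to 121495694, minus strand) was at 367.3, 283.0, 221.1 and 345.4 FPKM in normal mice 1 to 4 and at 348.7, 352.0, 401.3 and 321.1 in high fat diet fed mice 1 to 4. Normal mice 1 and 4 lay within the range of the high fat diet and normal mice 2 and 3 below it. The log2 fold change was 0.25 (95% interval -0.08 to 0.58, limma adjusted p = 0.216), and without normal mice 2 and 3 it was -0.0063 (95% interval -0.21 to 0.20).

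Adcyap1, the precursor of PACAP, a relative of vasoactive intestinal peptide (chromosome 17, 93199017 to 93206537, plus strand), was at 8.7, 6.7, 6.8 and 8.7 FPKM in normal mice 1 to 4 and at 6.2, 7.2, 6.8 and 5.3 in high fat diet fed mice 1 to 4. Normal mice 1 and 4 lay above all high fat diet fed mice, and normal mice 2 and 3 lay among them. Adcyap1 had a log2 fold change of -0.27 (95% interval -0.54 to 0.0025, limma adjusted p = 0.116), and without normal mice 2 and 3 it was -0.45 (limma adjusted p = 0.0346).

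**Figure D2:**
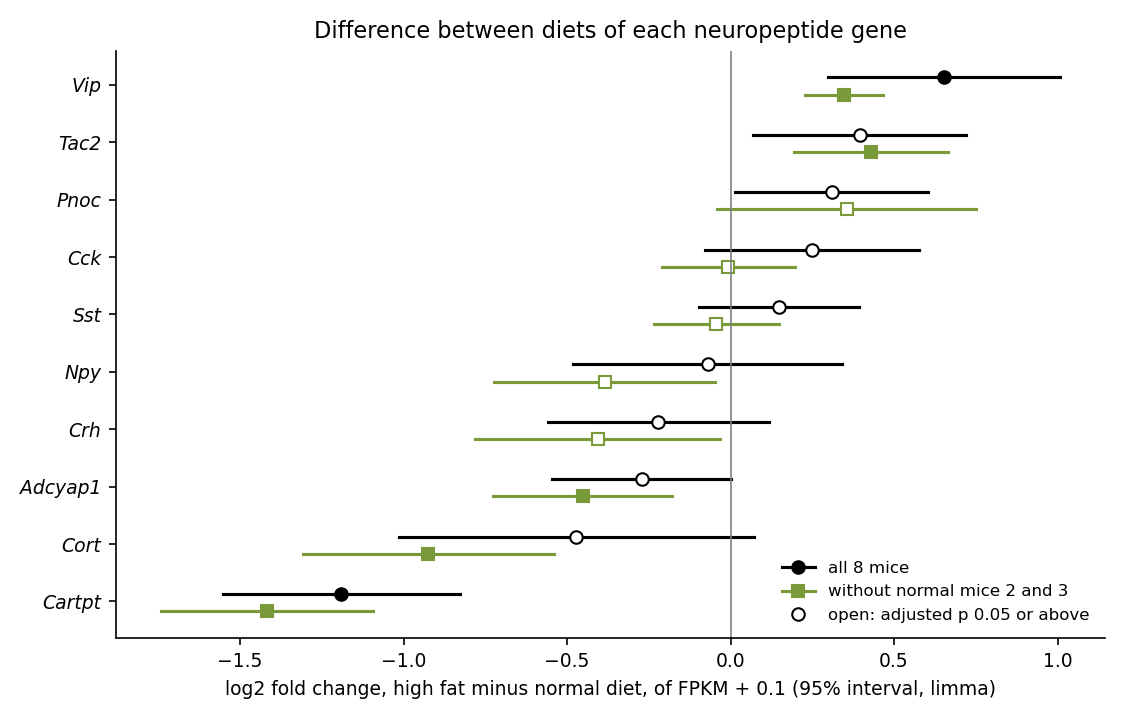
Log2 fold change of each neuropeptide gene, high fat minus normal diet, with 95% intervals from limma, for all 8 mice (black circles) and without normal mice 2 and 3 (green squares); filled symbols have an adjusted p below 0.05. Vip and Cartpt are filled in both, and Tac2, Adcyap1 and Cort are filled only without the 2 mice.

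The spread on the normal diet followed a shared pattern. In 8 of the 10 genes, all but Pnoc and Tac2, normal mice 1 and 4 both lay above normal mice 2 and 3, which held for 27.3% of all genes tested. The mean of mice 1 and 4 over that of mice 2 and 3 was 1.9 for Cort, 1.55 for Npy, 1.52 for Vip, 1.41 for Cck, 1.38 for Cartpt, 1.32 for Crh, 1.30 for Sst and 1.29 for Adcyap1. It was 0.94 for Pnoc and 0.926 for Tac2. The projection neuron genes went the same way in 15 of 18 cases, whereas 10 of 10 cerebellum and 8 of 8 thalamus genes went the opposite way. Measured hypothalamus genes summed to 33.1 and 31.2 FPKM in normal mice 2 and 3 and to 6.3 and 10.6 in normal mice 1 and 4, and most of this was Pmch, the precursor of melanin-concentrating hormone, at 24.7 and 17.8 against 0.5 and 2.5. The part of neighbouring tissue in the spread of the neuropeptide genes was not tested.

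When normal mice 2 and 3 were left out, a choice made after the values were seen, 5 of 10 neuropeptide genes had an adjusted p below 0.05 (limma), against 19.6% of all genes tested. On the high fat diet Vip and Tac2 were higher and Cartpt, Adcyap1 and Cort lower. Only Cartpt and Cort also changed by over 50%. The normal group then holds 2 mice. With the cerebellum genes as a covariate in all 8 mice, 1 of 10 genes, Cartpt, had an adjusted p below 0.05, against 3.84% of all genes tested.

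**Figure D3:**
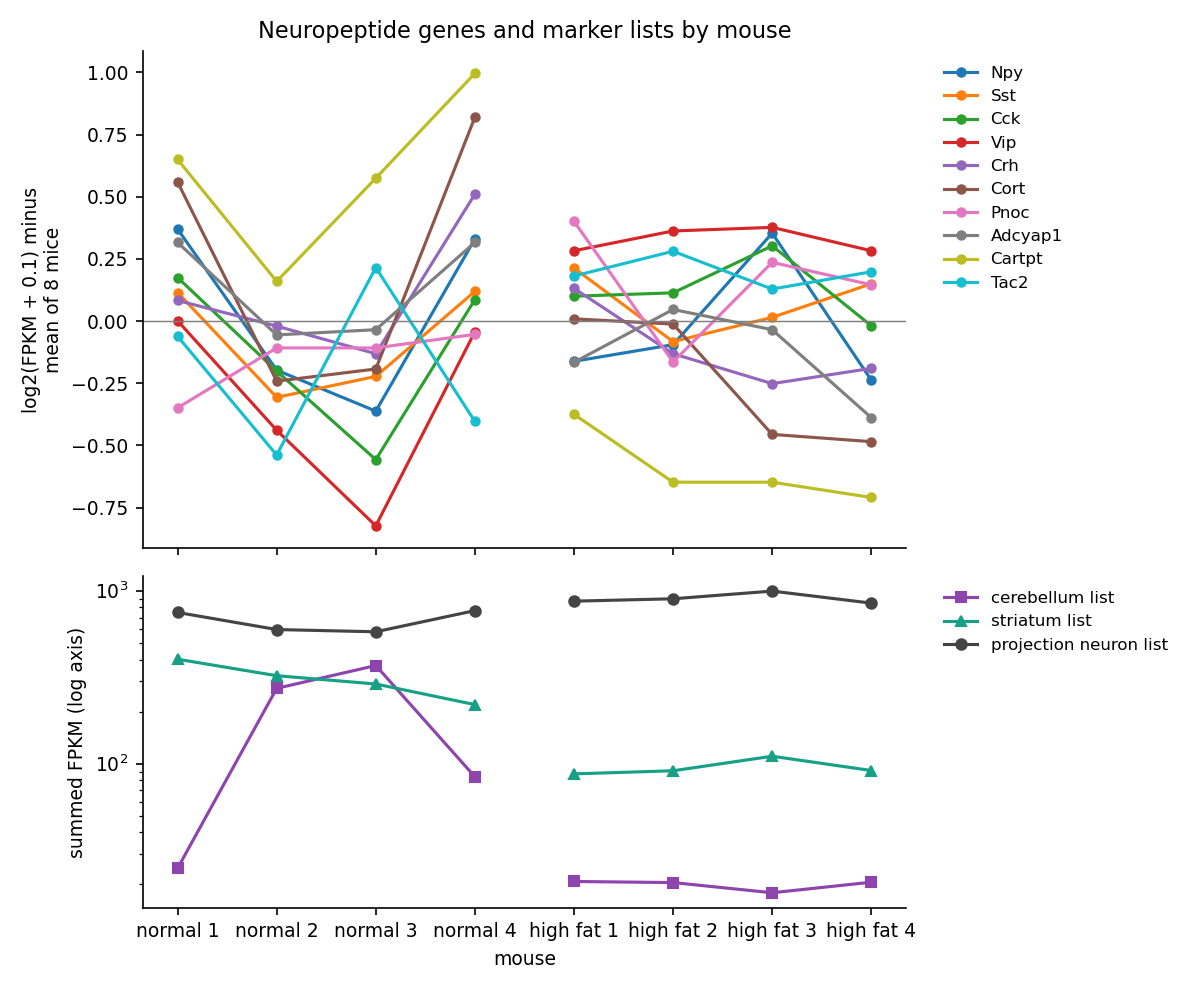
Upper panel, log2(FPKM + 0.1) of each neuropeptide gene minus its mean over the 8 mice. Lower panel, summed FPKM of the cerebellum, striatum and projection neuron genes in the same mice (log axis). Lines join the values of a gene or list within a diet and carry no order. Most neuropeptide genes dip in normal mice 2 and 3, where the cerebellum genes reach 272.4 and 369.3 FPKM.

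The receptors through which the 10 peptides act were then compared. Of 21 listed receptor genes, counting the binding protein Crhbp, 13 were measured. Of these, 9 had an adjusted p below 0.05, or 69.2% against 33.1% of all genes tested, 8 rising and 1 falling on the high fat diet, and their median log2 fold change was 0.32. Of the 13 genes, 6 were called without normal mice 2 and 3 (46.2%, against 19.6% of all genes tested), all 6 higher. With the cerebellum genes as a covariate, limma called 0 of 13 (3.84% of all genes tested), and 5 of 13 had an unadjusted p below 0.05 (38.5%, against 23.4% of all genes tested). Levels of the receptors, as of projection neuron genes, were higher in normal mice 1 and 4 than in mice 2 and 3 in 8 of 13 cases. Between the diets, 9 of 18 projection neuron genes were called higher and 1 lower (median log2 fold change 0.44), and 6 of 6 oligodendrocyte genes were called lower (median -0.87, summed FPKM 2019 to 3339 on the normal and 1396 to 1937 on the high fat diet). The part of these cell type genes in the diet difference of the receptors was not tested.

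Cckbr, the main brain receptor of cholecystokinin, rose the most. It was at 16.0, 11.8, 10.1 and 17 FPKM in normal mice 1 to 4 and at 25.8, 28.3, 27.8 and 22.4 in high fat diet fed mice 1 to 4. The diets did not overlap, and the log2 fold change was 0.95 (SE 0.16, limma adjusted p = 0.00266), or 0.65 without normal mice 2 and 3 (limma adjusted p = 0.00588). Its ligand Cck, as given above, did not pass the test.

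Among the receptors of neuropeptide Y, Npy1r and Npy2r moved in opposite directions. Npy1r, which is mostly found on the receiving neuron, was at 8.3, 6.3, 5.7 and 9.5 FPKM in normal mice 1 to 4 and at 11.1, 11.7, 10.9 and 10.7 in high fat diet fed mice 1 to 4, a log2 fold change of 0.60 (limma adjusted p = 0.0120). Npy2r, known as a receptor on nerve endings that limits release, was at 3.4, 3.2, 4.1 and 3.8 FPKM in the normal mice and at 1.9, 3.1, 1.5 and 1.7 in the mice fed high fat, a log2 fold change of -0.84 (limma adjusted p = 0.0116). The diets did not overlap for either gene, but high fat diet fed mouse 2 came within 0.1 FPKM of the normal range of Npy2r. With normal mice 2 and 3 left out, the log2 fold change was 0.32 for Npy1r (limma adjusted p = 0.0245) and -0.83 for Npy2r (limma adjusted p = 0.0557), about the same size as before for Npy2r and smaller for Npy1r. Npy5r was at 2.65 ± 0.387 and 3.00 ± 0.200 FPKM (SD, n = 4) and did not pass the test (log2 fold change 0.18, limma adjusted p = 0.243).

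Of 4 measured somatostatin receptors, which also bind cortistatin, Sstr4 and Sstr1 rose. Sstr4 went from 10.9 ± 2.87 to 16.95 ± 0.971 FPKM (log2 fold change 0.67, limma adjusted p = 0.0144) and Sstr1 from 7.05 ± 0.719 to 9.93 ± 0.550 (0.49, limma adjusted p = 0.00265). Sstr2 and Sstr3 did not pass the test, with log2 fold changes of 0.03 (95% interval -0.26 to 0.32) and 0.10 (-0.15 to 0.34). Leaving out normal mice 2 and 3 gave 0.36 for Sstr4 and 0.38 for Sstr1 (limma adjusted p = 0.0114 and 0.0127), and -0.22 and -0.11 for Sstr2 and Sstr3 (limma adjusted p = 0.0641 and 0.323). Receptors of vasoactive intestinal peptide and PACAP were higher on the high fat diet, with a log2 fold change of 0.50 for Vipr1 (limma adjusted p = 0.0206) and of 0.32 for Adcyap1r1, the receptor selective for PACAP (limma adjusted p = 0.00517). Oprl1, the nociceptin receptor, rose by 0.24 on the log2 scale (limma adjusted p = 0.0154). Crhbp, a secreted protein that binds corticotropin-releasing hormone, rose by 0.35 (limma adjusted p = 0.0351), while the receptor Crhr1 was at 11.9 ± 1.08 and 12.4 ± 0.370 FPKM and did not pass the test (limma adjusted p = 0.512). Leaving out normal mice 2 and 3 gave 0.27 for Vipr1 and 0.16 for Crhbp, which no longer passed the test (limma adjusted p = 0.0564 and 0.208), and 0.31 for Adcyap1r1 and 0.26 for Oprl1, which did (limma adjusted p = 0.0329 and 0.0499).

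**Figure D4:**
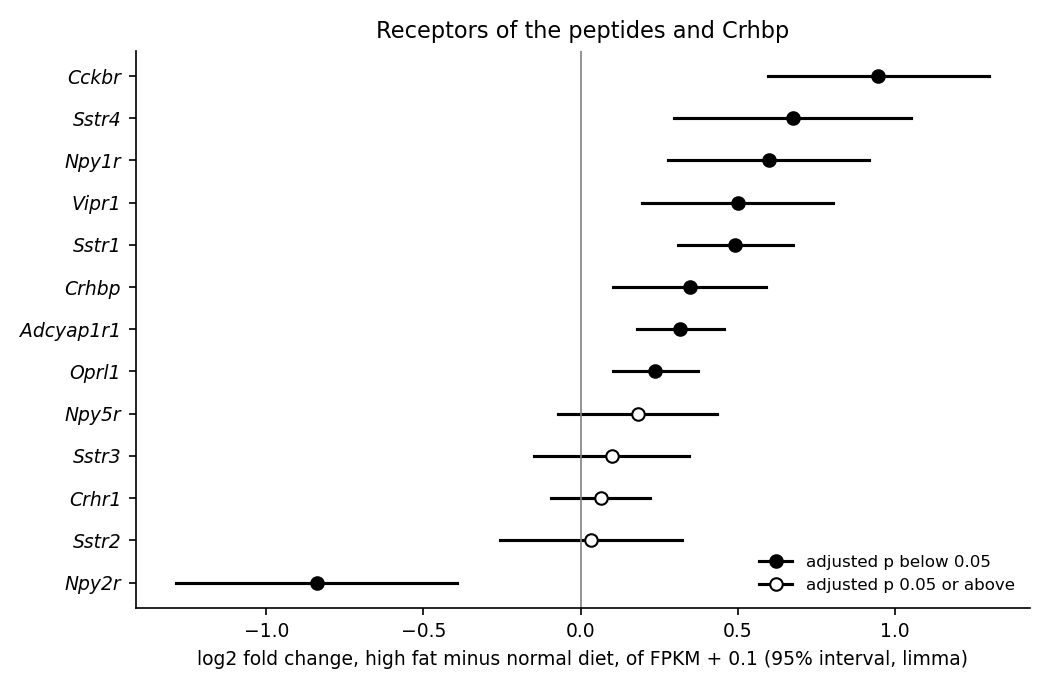
Log2 fold change, high fat minus normal diet, of the 13 measured genes of the receptor list, Crhbp included, with 95% intervals from limma; filled circles have an adjusted p below 0.05. Cckbr is highest at 0.95, and Npy2r, at -0.84, is the filled gene below 0.

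The genes that cut, store and release peptides were changed in part. All 18 listed genes were measured, and 12 had an adjusted p below 0.05 (66.7%, against 33.1% of all genes tested), with 8 higher and 4 lower and a median log2 fold change of 0.13. Of the 2 main proteases, Pcsk1 went from 15.1 ± 1.57 to 21.8 ± 1.36 FPKM (log2 fold change 0.53, limma adjusted p = 0.00176), and Pcsk2 was at 95.7 ± 14.1 and 109 ± 7.71 and did not pass the test (0.19, limma adjusted p = 0.168). Vgf, a granule protein and itself a peptide precursor, rose by 0.57 (limma adjusted p = 0.00637) and Pcsk5, another protease, by 0.77 (limma adjusted p = 0.00855). Scg2, the granule protein secretogranin II, was at 123.2, 148.1, 145.3 and 136.9 FPKM in normal mice 1 to 4 and at 87.0, 82.5, 82.4 and 78.7 in high fat diet fed mice 1 to 4. The diets lay far apart in Scg2, and the log2 fold change was -0.74 (SE 0.06, limma adjusted p = 0.000206). Cadps2, which primes granules for release, fell by 0.61 on the log2 scale (limma adjusted p = 0.000903). Its relative Cadps was at 69.3 ± 3.12 and 69.0 ± 2.41 FPKM (log2 fold change -0.0058, 95% interval -0.11 to 0.10). Without normal mice 2 and 3, 7 of 18 genes were called (38.9%, against 19.6% of all genes tested). Those higher were Pcsk1 (0.45), Vgf (0.43), Pcsk5 (0.45), Furin (0.32) and Ptprn2 (0.29), and those lower were Scg2 (-0.65) and Cadps2 (-0.48). With the cerebellum genes as a covariate, limma called 1 of 18 (3.84% of all genes tested). An unadjusted p below 0.05 was reached by 6 of 18 (33.3%, against 23.4% of all genes tested). Scg2 and Cadps2 were higher in normal mice 2 and 3 than in normal mice 1 and 4, as the cerebellum genes were. The part of neighbouring tissue in their falls was not tested.

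Of 6 measured peptidases that degrade released peptides, 2 were called (33.3%, against 33.1% of all genes tested). Mme, which encodes neprilysin, was at 2.70 ± 0.408 FPKM on the normal and 1.58 ± 0.206 on the high fat diet (SD, n = 4 each), with a log2 fold change of -0.74 (limma adjusted p = 0.00531). Thop1 rose by 0.17 (limma adjusted p = 0.0396), and its log2 fold change was 0.16 with normal mice 2 and 3 left out, where it did not pass the test (limma adjusted p = 0.144). In that fit Mme was called at -0.65 (limma adjusted p = 0.0478), and Nln, another peptidase, at -0.28 (limma adjusted p = 0.0211).

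Neuropeptide genes beyond the 10 were measured in 15 of 34 cases. Of these, 8 had an adjusted p below 0.05 (53.3%, against 33.1% of all genes tested), 2 higher and 6 lower, and their median log2 fold change was -0.57. Grp, the precursor of gastrin-releasing peptide, was at 6.6, 5.5, 5.8 and 7.5 FPKM in normal mice 1 to 4 and at 16.4, 13.3, 13.3 and 15.8 in high fat diet fed mice 1 to 4, a log2 fold change of 1.202 (limma adjusted p = 0.000307). Nppc, the precursor of C-type natriuretic peptide, rose by 0.66 (limma adjusted p = 0.00717). Penk, the precursor of enkephalins, was at 131.5, 114.4, 118.5 and 71.3 FPKM in normal mice 1 to 4 and at 11.7, 9.3, 11.4 and 12.3 in high fat diet fed mice 1 to 4, a log2 fold change of -3.24 (limma adjusted p = 4.9e-05). Tac1, the precursor of substance P, fell by 1.81 on the log2 scale (limma adjusted p = 0.000126) and Pdyn, the precursor of dynorphins, by 0.57 (limma adjusted p = 0.00457). Penk, Tac1 and Pdyn are also abundant peptides of striatal neurons, and all 11 measured striatum genes fell between the same diets. Their part in these falls cannot be told apart from diet here. Nmb fell by 0.91 and Apln by 0.64 (limma adjusted p = 0.0262 and 0.00480). Pmch, with a log2 fold change of -3.79 (limma adjusted p = 0.0277), overlapped between the diets, and with normal mice 2 and 3 left out it was at -1.75 (limma adjusted p = 0.177). The other 7 called genes stayed called in that fit, 7 of 15 (46.7%, against 19.6% of all genes tested), with log2 fold changes of -3.11 for Penk, -1.80 for Tac1, -1.29 for Nmb, -0.63 for Pdyn, -0.62 for Apln, 0.84 for Nppc and 1.05 for Grp.

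The interneuron genes gave a background for the peptides that these cells make. Of 29 listed genes 26 were measured and 14 were called (53.8%, against 33.1% of all genes tested), 7 higher and 7 lower, with a median log2 fold change of 0.04. Gad1, Gad2 and Slc32a1, which make and load GABA and are shared by all interneurons, fell by 0.23, 0.35 and 0.37 on the log2 scale (limma adjusted p = 0.00863, 0.00892 and 0.0377). Gad2 and Slc32a1 were also higher in normal mice 2 and 3 than in normal mice 1 and 4, as the cerebellum genes were. The striatum genes fell between the same diets, and the part of neighbouring tissue in these falls was not tested. Satb1, a transcription factor of Sst and Pvalb cells, went from 25.9 ± 5.11 to 52.9 ± 5.37 FPKM (log2 fold change 1.04, limma adjusted p = 0.000979). Lhx6, another factor of these cells, rose by 0.49 (limma adjusted p = 0.00668). Adarb2, a gene of the other branch, which includes Vip cells, fell by 0.39 (limma adjusted p = 0.00257). Not all listed genes of that branch fell. Npas1 rose by 0.49 (limma adjusted p = 0.0133), and Htr3a was higher by 0.31 without passing the test (limma adjusted p = 0.05003). Prox1 and Calb2 fell, as given below.

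Pvalb was at 50.1, 140.3, 145.8 and 60.5 FPKM in normal mice 1 to 4 and at 33.4 to 55.6 in the mice fed high fat, a log2 fold change of -1.07 (limma adjusted p = 0.0367). Calb2 was at 11.0, 71.2, 83.1 and 36.6 FPKM in the normal mice and at 7.1 to 10.9 in high fat diet fed mice (-2.16, limma adjusted p = 0.0142). Both were highest in normal mice 2 and 3, as the cerebellum genes were, and with these mice left out they were at -0.39 and -1.19 (limma adjusted p = 0.157 and 0.0763). Prox1 fell by 0.68 (limma adjusted p = 0.00792), and its log2 fold change was -0.47 without these mice (limma adjusted p = 0.0595). Prox1 is also a listed hippocampus gene. Of 5 tested hippocampus genes, Prox1 included, 2 were called lower and 1 higher (60.0%, against 33.1% of all genes tested). The part of hippocampal tissue in the fall of Prox1 was not tested. Of the 26 interneuron genes, 7 were called without normal mice 2 and 3 (26.9%, against 19.6% of all genes tested), among them Gad1 (-0.24), Gad2 (-0.22), Satb1 (0.80), Lhx6 (0.33) and Adarb2 (-0.40), while Slc32a1 was at -0.18 (limma adjusted p = 0.207).

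Levels relative to interneuron genes were compared with an exact two-sided permutation test over the 70 assignments of 8 mice to the diets, whose smallest p is 0.0286, with adjustment over 16 ratios. Of the 16 ratios, 10 reached that p (adjusted p = 0.0458), which is also the smallest adjusted p that 10 such ratios allow. Relative to the mean of Gad1, Gad2 and Slc32a1, the log2 ratio differed by 0.97 for Vip, 0.71 for Tac2, 0.63 for Pnoc, 0.57 for Cck and -0.87 for Cartpt, high fat minus normal diet, each without overlap between the diets. The ratios were not tested without normal mice 2 and 3. These had the lowest ratios of Cck (2.79 and 2.34, against 3.41 and 3.16 in normal mice 1 and 4). The same held for Vip (-1.26 and -1.74, against -0.577 and -0.783). They were also lowest of the normal mice for Cartpt, but not for Tac2 and Pnoc. The ratios of Npy, Sst, Crh, Cort and Adcyap1 overlapped, with exact permutation p between 0.0857 and 0.80. These 5 of 10 genes without overlap stand beside 43.3% of all genes tested in the same ratio, and the reference genes themselves fell. The part of neighbouring tissue in that fall was not tested, so a level per interneuron cannot be read from these ratios.

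Relative to Lhx6, the log2 ratio differed by -0.34 for Sst, -0.56 for Npy and -0.96 for Cort, each lower on the high fat diet and without overlap in 3 of 3. Relative to Adarb2, it was higher by 1.04 for Vip and 0.78 for Tac2, while Crh overlapped (0.16, exact permutation p = 0.314). Of all genes tested, 64.6% did not overlap relative to Lhx6 and 65.6% relative to Adarb2. Lhx6 itself rose and Adarb2 fell.

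With the 18 projection neuron genes as the reference, added after the values were seen, the log2 ratio differed by 0.26 for Vip, -1.59 for Cartpt, -0.87 for Cort, -0.67 for Adcyap1 and -0.62 for Crh, each without overlap (exact permutation p = 0.0286, adjusted p = 0.0572 over 10 ratios). These 5 of 10 stand beside 60.6% of all genes tested without overlap relative to the same reference. Tac2 showed a log2 difference of -0.0017 by this reference. The summed FPKM of these 18 genes was itself 578.8 to 767.3 on the normal and 848.0 to 995.1 on the high fat diet. Vip was higher relative to each of the 3 references used for it (the GABA genes, Adarb2 and the projection neuron genes). Cartpt was lower relative to both of those used for it (the GABA genes and the projection neuron genes). Vip rose while the GABA genes and Adarb2 fell, and Cartpt fell while the projection neuron genes rose. The direction was thus fixed in advance for Vip relative to the GABA genes and Adarb2 and for Cartpt relative to the projection neuron genes. Vip rose as the projection neuron genes did, and Cartpt fell as the GABA genes did. The direction of those ratios shows only which side moved more. Relative to the projection neuron genes, Vip was at 0.354 and 0.307 in normal mice 1 and 4. It was at 0.128 and -0.154 in normal mice 2 and 3 and at 0.371 to 0.432 on the high fat diet.

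**Figure D5:**
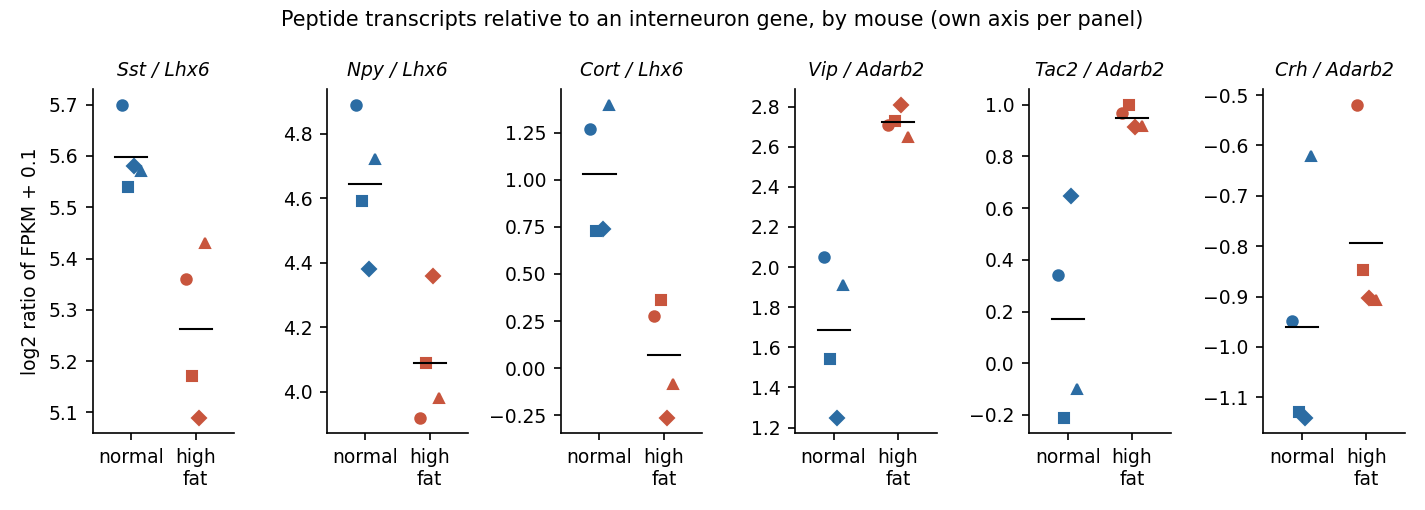
Log2 ratio of the FPKM + 0.1 of Sst, Npy and Cort to Lhx6 and of Vip, Tac2 and Crh to Adarb2 in each mouse, with blue symbols for normal and red for high fat diet fed mice, lines for the means of 4 mice and an axis of its own for each panel. The diets overlap in the ratio of Crh to Adarb2 and in none of the other 5 panels.

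Pairs of peptides known from the same interneurons were correlated across the 8 mice after subtraction of each diet mean, with exact permutation within diets. Pearson's r was 0.526 for Sst and Npy (rho 0.50), 0.732 for Sst and Cort (rho 0.833), 0.589 for Npy and Cort (rho 0.69), -0.446 for Vip and Tac2 (rho -0.06) and 0.586 for Vip and Crh (rho 0.515). None of the 5 pairs passed the test, with exact permutation p of 0.182 to 0.566 for r (adjusted 0.397 to 0.566) and of 0.132 to 0.847 for rho (adjusted 0.416 to 0.847). Without the 2 mice farthest from the median of the first gene, r was 0.335, 0.509, 0.927, 0.633 and 0.646 in the same order. The sign for Vip and Tac2 rested on normal mouse 3, the mouse with the lowest Vip and the highest normal Tac2, and r was 0.722 without it. The mice of the normal diet fall into 1 and 4 against 2 and 3, and a relation within the pairs apart from that division could not be tested.

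As a description, the genes most like each peptide gene were sought among the genes of mean FPKM at least 5, by Pearson's r of log2 values centred on each diet over the 8 mice. Npy was most like Lrp11 (0.996) and Clstn1 (0.994), Sst most like Chmp1a (0.976) and Hdac3 (0.974) and Cck most like Phactr3 (0.993) and Plekhg5 (0.993). Vip was most like Pamr1 (0.994) and Lhx2 (0.994), Crh most like Tmem200a (0.976) and Plekha7 (0.958) and Cort most like Trhde (0.989) and Pak6 (0.974). Pnoc was most like Necap1 (0.945) and Cltb (0.939), Adcyap1 most like C1qtnf4 (0.982) and Tmem191c (0.976), Cartpt most like Ddx39b (0.952) and Zfp512b (0.943) and Tac2 most like Usp28 (0.957) and Zrsr2 (0.939). No pair of the 10 peptide genes appears in these lists, but Crh, Pnoc and Cartpt averaged below 5 FPKM and could not be listed as a match. The 9637 or 9638 genes compared for each share the same 8 libraries, and values of this size carry no test.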

How the data were processed

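One stranded, rRNA-depleted library per mouse was sequenced by the authors from both ends with 100 cycles, from RNA with an integrity number above 9. Reads were checked with FastQC, trimmed with Trimmomatic and aligned to mm10 with STAR. The deposited FPKM values were then made by the authors with Cuffnorm and the basic GENCODE M17 gene models for GRCm38.p6. Tool versions were not given in the sources used here. A second quantification with Salmon and edgeR was not used. FPKM is rounded to 0.1 and summed to between 562431 and 639142 per mouse. The depth is unknown, so precision comes from the spread between mice alone.

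From there, log2(FPKM + 0.1) was fitted with limma 3.58.1 (R 4.3.3, variance trend, two-sided) over 13982 genes, in place of the per-gene test of the authors. Ratios, correlations and figures used Python 3.11.15, numpy 2.4.6, pandas 2.3.3, scipy 1.17.1 and matplotlib 3.10.9. The procedure was tested on simulated data. Coordinates are from GENCODE M21 on GRCm38, later than M17. All 10 neuropeptide genes are named, as are listed genes with an adjusted p below 0.05 and a change over 50%, measured receptors and the 2 genes most like each peptide gene. Other listed genes that are named beside these were chosen after their values were seen. The genes and lists were chosen with earlier results of these data known. Alternatives were other added constants, filters and scalings, no trend, a replicate block, tissue covariates and each mouse left out.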

Additional observations from a re-analysis of the deposited data

Results flagged for a closer look

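In 5 of 76 groups of 4 mice, formed by diet from the neuropeptide, receptor and other peptide genes, 1 mouse lay apart from the other 3 by Dixon's criterion. Chance gives about 1 in 20 such groups, and the rounding to 0.1 FPKM makes ties among the other 3 mice common. Cartpt was at 2.8 FPKM in high fat diet fed mouse 1 against 2.2 to 2.3 in the others, still below every normal mouse. Npy5r was at 3.3 FPKM in high fat diet fed mouse 3 against 2.9 in each of the others. Tac1 was at 5.7 FPKM in high fat diet fed mouse 4 against 7.7 to 8.1. Apln was at 9.6 FPKM in high fat diet fed mouse 3 against 6.5 to 6.8. Nppc was at 3.5 FPKM in high fat diet fed mouse 4 against 4.7 in each of the others. High fat diet fed mouse 4 is also the mouse with a choroid plexus sum of 948.0 FPKM, and a relation of that sum to its Tac1 and Nppc values was not tested.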

How the results depend on the processing

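The calls of Vip and Cartpt held with another added constant, without the filter, under median-ratio rescaling and quantile normalization, without the trend and with each mouse left out. With a mean FPKM of at least 5, Cartpt, Crh and Pnoc fell outside the filter, and the calls were 1 of 7 for the neuropeptide genes (1 with a change over 50%), 1 of 4 for peptidases and 8 of 13 for interneuron genes, against 38.1% of the 9638 genes tested. With the cerebellum genes as a covariate the calls were 1 for the 10 genes (1 over 50%), 0 for receptors, 1 for processing genes, 0 for peptidases, 4 for other neuropeptides and 0 for interneuron genes, and an unadjusted p below 0.05 was reached by 5 of 13, 3 of 6 and 7 of 26 genes in the lists with 0, against 23.4% of all genes tested. The striatum covariate left 0 genes called of all tested (309 at an unadjusted p below 0.05, 1 of them among the 10 genes) and 0 in each list by limma, which says nothing of stability because it is nearly the diet itself. Without normal mice 2 and 3, added after the values were seen, the calls were 5 for the 10 genes, 7 for processing genes and 7 for interneuron genes. Limma without a trend left 1 peptidase called. With each mouse left out, calls over 50% among the 10 genes were 1 to 2 (1 without normal mouse 3, when Vip changed by less) and peptidase calls were 1 to 2.

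Signs turned as follows, with the cause not tested. The log2 fold change of Sst was -0.20 and that of Cck -0.29 with the cerebellum covariate, and they were -0.043 and -0.0063 without normal mice 2 and 3. That of Pnoc was -0.17 with the striatum covariate. With each mouse left out, Npy ranged from -0.20 to 0.041, the ratio to the GABA genes from -0.035 to 0.24 for Crh, from -0.35 to 0.047 for Cort and from -0.061 to 0.17 for Adcyap1, and r of Vip and Tac2 from -0.775 to 0.722. The adjusted p of the 16 ratios passed 0.05 in 0 of them with an added constant of 1 (lowest 0.0508), in 0 with each mouse left out (lowest 0.0572 to 0.0914) and in 0 of 10 with the projection neuron reference.

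With the replicate number as a block, 2 of the 10 genes stayed called (Cartpt 0.00896, Vip 0.0301, limma adjusted p), 1 peptidase was called, and 3390 genes were called in place of 4626. The numbers carry no stated pairing of the mice. Deviations of same-numbered mice correlated at -0.109 to -0.0275, and 0 of 4 normal mice were closest to the high fat diet fed mouse of their number. With 4 mice of each diet these values show no pairing but cannot exclude one.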
